A study of Arabidopsis thaliana with 4 samples.

Results

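Narrow nucleosomes without close neighbours were examined on the chromosome arms of Arabidopsis thaliana, in inflorescences of the topoisomerase mutant top1a-2 and of Landsberg erecta (Ler). A nucleosome was counted as one of them where its call had a fuzziness, the spread of its position, of 25 bp or less and where the call before it and the call after it each lay 250 bp or more away. Calls within 2.5 Mb of the assumed centromere positions were left out. In all, 7917 calls met this rule, of 1253289 calls in 4 lists. These calls were chosen by their measured fuzziness and neighbour distance, so both are given as description only. The calls set against them were the 674852 arm calls with the same neighbour distance and a fuzziness over 25 bp. They are called isolated wide calls here, and the 7917 isolated narrow calls.

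The libraries came from digestion of nuclei with micrococcal nuclease, which cuts the linker DNA between nucleosomes, followed by sequencing of fragments near the length protected by a single nucleosome. There were 2 libraries of top1a-2 and 2 of Ler, and the labels give Ler as the ecotype of both genotypes. TOP1α is a DNA topoisomerase I, and top1a-2 is the single mutant allele studied. Whole inflorescences with unopened buds were used, so each call sums over many cell types. The labels name no plant age. Nothing in the labels ties the libraries to separate pools of plants, so that the spread between them may be technical.

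A nucleosome wraps a short stretch of DNA around a core of histone proteins. Where it sits at the same place in most cells of a tissue, fragment ends pile up at the same bases and a caller reports little spread. Where it sits at different places in different cells, the spread is large. Well placed nucleosomes are known mainly from ordered arrays next to gene starts, in which neighbours lie close together. Topoisomerase I relaxes the DNA supercoils that arise during transcription and replication and that affect how DNA wraps around histones. The lists end 356 to 439 kb before the last gene of each chromosome in the assembly TAIR10.1, so they were not joined to that assembly, and calls are given by position and not by gene or sequence.

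There were 335395 and 315609 calls in the top1a-2 replicates, against 315744 and 286541 calls in those of Ler. By the 250 bp rule, 58.1% and 66.5% of the arm calls of top1a-2 were isolated, as were 69.4% and 75.3% of those of Ler. The lists carry no read counts, so read depth is unknown and no counting interval is given. The score averaged 1.01 to 1.02 in every list. The forward and reverse votes were fractional values, not reads, and their median over all calls was between 0.123 and 0.218.

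Isolated narrow calls were rare in every library and made up a larger share of the isolated calls in both top1a-2 libraries. There were 3034 and 2052 of them in the top1a-2 replicates, against 1452 and 1379 in those of Ler. As a share of isolated arm calls this was 1.90% and 1.20% in top1a-2, against 0.815% and 0.793% in Ler. The genotypes did not overlap, while the top1a-2 replicates lay much further apart than the Ler replicates. The share averaged 1.55% ± 0.492 in top1a-2, against 0.804% ± 0.0159 in Ler (SD, n = 2 each), a ratio of 1.93. No test was made, because fuzziness chose the calls and earlier results on narrow calls in these lists were known. The difference of 0.745 percentage points was 0.397 without top1a-2 replicate 1, which held more calls than any other library, and 1.09 without top1a-2 replicate 2. All 10 settings that rebuilt the set of calls gave shares without overlap of the genotypes. Of all arm calls, isolated narrow calls were 1.10% and 0.798% in top1a-2, against 0.566% and 0.597% in Ler. The excess was not confined to isolated calls. Narrow calls at any neighbour distance made up 10.4% and 7.29% of the arm calls for the mutant replicates. The Ler replicates had 5.80% and 4.77%. Outside the isolated calls the narrow share was 22.2% and 19.4% for the mutant replicates and 17.1% and 16.9% for the Ler replicates. Of the narrow arm calls, 10.6% and 10.9% were isolated for the mutant and 9.76% and 12.5% for Ler, so the genotypes overlapped.

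Narrow calls were less frequent the further the nearest neighbour was, except in Ler replicate 1, where the share was 0.480% at 300 to 400 bp and 0.540% beyond. Below 150 bp, 50.9% and 49.2% of the arm calls of top1a-2 were narrow, as were 49.6% and 46.9% of those of Ler. At 200 to 250 bp, the upper limit of each class not included, the values were 10.1% and 8% in top1a-2, against 6.61% and 6.96% in Ler. From 400 bp on they were 1.22% and 0.666% in top1a-2, against 0.540% and 0.443% in Ler. The genotypes overlapped below 150 bp and not in the 5 classes of longer distance. The ratio of top1a-2 to Ler grew with the distance, at 1.04 below 150 bp, 1.16 at 150 to 200 bp, 1.33 at 200 to 250 bp, 1.63 at 250 to 300 bp, 1.82 at 300 to 400 bp and 1.92 from 400 bp on. Without top1a-2 replicate 1 the ratios were 1.02, 1.10, 1.18, 1.39, 1.43 and 1.36 in the same classes, so the last step was downward. The number of calls in a list moves with these distances, and its part in the ratios was not tested.

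**Figure D1:**
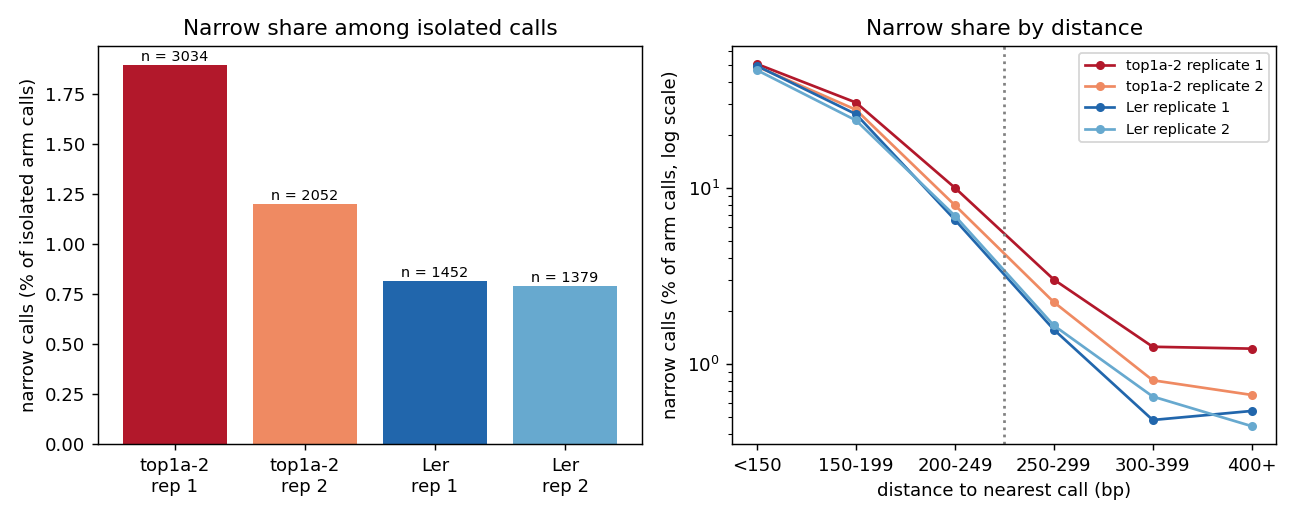
Left, isolated narrow calls as a percentage of isolated arm calls, 1 bar per library with the number of calls. Right, narrow calls as a percentage of all arm calls (log scale) against the distance to the nearest call in bp, 1 line per library, with a dotted line at the 250 bp rule. The top1a-2 bars stand at 1.90% and 1.20% and the Ler bars at 0.815% and 0.793%. On the log scale, which shows ratios, the genotypes lie further apart at long than at short distances, most for top1a-2 replicate 1.

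The median fuzziness was 21 bp in each of the 4 libraries, against 41 bp for isolated wide calls. Values of 21 to 25 bp held 56.5% and 52.4% of the set in top1a-2, against 53.0% and 52.1% in Ler, so most calls lay near the limit. A small group with a fuzziness under 3 bp held 153 and 103 calls of top1a-2 and 59 in each Ler library. That was 5.04% and 5.02% of the set in top1a-2, against 4.06% and 4.28% in Ler, without overlap. Just inside the limit, at 24 to 25 bp, the top1a-2 lists held 903 and 596 isolated calls and the Ler lists 418 and 386. Just outside it, at 26 to 27 bp, there were 1507 and 1025 in top1a-2, against 854 and 779 in Ler. Median scores just inside were 0.599 and 0.468 in top1a-2, against 0.586 and 0.515 in Ler. Just outside they were 0.686 and 0.614 in top1a-2, against 0.672 and 0.569 in Ler. Calls were thus fewer and scores lower just inside the limit in each library. Narrow calls with the nearest neighbour in the first 10 bp beyond the distance limit numbered 196 to 502 per library (median scores 0.325 to 0.481), and those in the last 10 bp before it numbered 286 to 655 (0.370 to 0.494). Here the calls were fewer beyond the limit in each library, while the scores had no common direction.

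The isolated narrow calls were weak calls. Their median score was 0.413 and 0.287 in the top1a-2 replicates, against 0.392 and 0.266 in those of Ler. Isolated wide calls had median scores of 1.02 and 0.963 in top1a-2, against 1.01 and 1.00 in Ler. The difference averaged -0.659 ± 0.0611 (SD over 4 libraries) and was negative in 4 of 4 libraries (exact sign permutation p = 0.13, the smallest that 4 libraries allow; 0.321 after Benjamini-Hochberg adjustment over 18 tests). Score, votes, size and fuzziness come from the same reads of a call, so these measures are not independent readings. The lowest-scoring 25% of a list held 60.9% and 67.9% of the isolated narrow calls of top1a-2 and 66.1% and 70.1% of those of Ler, while it held 13% to 13.6% of the isolated wide calls. Scores over 2 were found in 23 and 13 isolated narrow calls in top1a-2 and in 13 and 11 in Ler, or 0.634% to 0.895%, against 5.65% to 7.56% of isolated wide calls. Low scores thus prevailed among isolated narrow calls in every library.

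The votes were low as well, and they came unevenly from the strands. Median summed votes of isolated narrow calls were 0.0603 and 0.0411 in top1a-2, against 0.0862 and 0.0522 in Ler. For isolated wide calls they were 0.145 and 0.168 in top1a-2, against 0.214 and 0.269 in Ler. The level of the votes differs between lists, so they are also given as a percentage within each list. Isolated narrow calls had 41.5% and 24.4% of the isolated wide median in top1a-2, against 40.3% and 19.4% in Ler. The difference was negative in 4 of 4 libraries (mean -0.139 ± 0.0553, SD; exact sign permutation p = 0.13, adjusted p = 0.321). It was positive, at 0.0379, when the lowest-scoring 25% of each list was removed before neighbours were found, and at 4.93 with means in place of medians.

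Strand imbalance, the difference of forward and reverse votes as a percentage of their sum, had a median of 38.8% and 33.5% in the top1a-2 replicates, against 45.6% and 34.1% in those of Ler. Isolated wide calls had 25.8% and 20.3% in top1a-2, against 24.9% and 18.2% in Ler. Isolated narrow calls were thus more one-sided in 4 of 4 libraries, by 15.7 ± 3.62 percentage points (SD; exact sign permutation p = 0.13, adjusted p = 0.321). More than 90% of the votes came from 1 strand in 18.7% and 19.9% of the isolated narrow calls in top1a-2 and in 25.3% and 24.9% in Ler. For isolated wide calls that share was 0.647% to 2.30%. An intact core particle is cut on both of its sides, and whether the one-sided calls stem from intact particles was not tested. The forward strand was the higher one in 53.4% and 51.8% of the isolated narrow calls in top1a-2 and in 55.6% and 58.4% in Ler.

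The median protected size was 140.0 and 135.4 bp in top1a-2, against 135.4 and 130.3 bp in Ler for isolated narrow calls. It was 147.1 and 144.6 bp in top1a-2, against 147.0 and 144.2 bp in Ler for isolated wide calls. The difference averaged -10.5 ± 2.97 bp (SD) and was negative in 4 of 4 libraries (exact sign permutation p = 0.13, adjusted p = 0.321). Both tails of the size distribution were heavier among isolated narrow calls. Sizes under 100 bp made up 8.40% to 16.5% of them, against 2.84% to 5.01% of isolated wide calls, and sizes over 200 bp 5.50% to 9.16%, against 2.24% to 4.61%. Short sizes were less frequent in top1a-2, at 8.98% ± 0.811, than in Ler, at 16.1% ± 0.588 (SD, n = 2), with no overlap between the genotypes. Isolated wide calls had the same order, with 3.42% and 2.84% in top1a-2, against 5.01% and 4.39% in Ler. The difference between the genotypes was not tested for either kind of call.

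**Figure D2:**
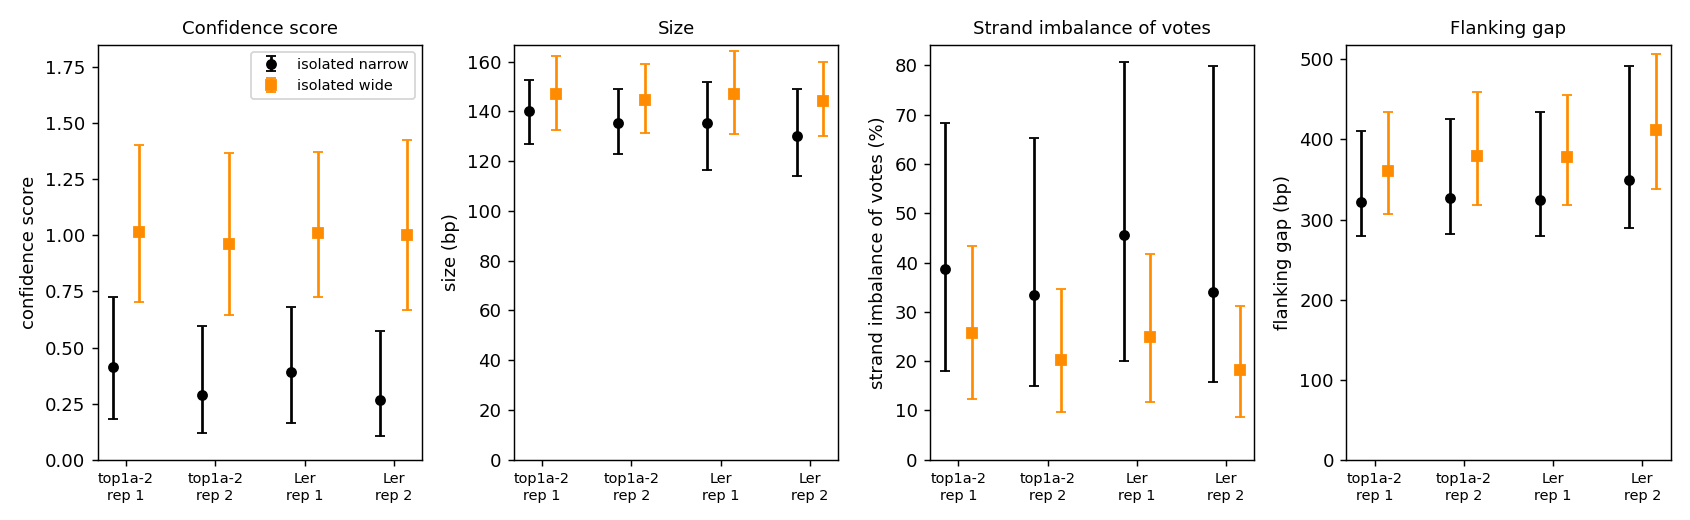
Confidence score, size in bp, strand imbalance of the votes in percent and flanking gap in bp for isolated narrow calls (circles) and isolated wide calls (squares) in each library. Points are medians over calls and bars run from the lower to the upper quartile. Narrow calls have lower scores, smaller sizes and larger imbalance in all 4 libraries, and their gaps have a shorter median.

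The gaps beside isolated narrow calls were shorter at the median and had a long upper tail. The median gap to the neighbour on either side was 322 and 327 bp in top1a-2, against 325 and 349 bp in Ler. Beside isolated wide calls it was 361 and 379 bp in top1a-2, against 378 and 412 bp in Ler. The difference was -51.8 ± 9.84 bp (SD over 4 libraries), negative in 4 of 4 libraries. As the rule set a limit on these gaps, no test is given. With means in place of medians it was 82.3 bp, and without the lowest-scoring 25% of each list 74.1 bp, so the direction depends on the summary and on the weak calls. A limit of 300 bp on both sides left a difference of 0.5 bp. The longer of the 2 gaps exceeded 1000 bp for 6.10% and 8.14% of the isolated narrow calls in top1a-2 and for 11% and 12.7% in Ler. For isolated wide calls that share was 0.619% to 0.932%.

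Isolated narrow calls at the edge of a gap of over 1000 bp differed from those with both gaps under 400 bp. The calls at such an edge numbered 185 and 167 in top1a-2, against 159 and 175 in Ler. Their number was thus similar in the genotypes while the set itself was larger in top1a-2. Their median strand imbalance was 94.7% to 97.0% across the libraries, against 27.2% to 35.0% for isolated narrow calls with both gaps under 400 bp. Their median size was 105 to 126 bp, against 131 to 141 bp, and their median score 0.152 to 0.191, against 0.354 to 0.501. The calls that flank isolated narrow calls were themselves weak. Neighbours had a median score of 0.605 and 0.492 in top1a-2, against 0.562 and 0.456 in Ler. Beside isolated wide calls the 4 medians lay at 0.948 to 0.998. Of the neighbours, 8.20% to 8.64% were narrow, against 1.40% to 3.52% beside isolated wide calls, and 4.34% to 5.08% belonged to the set, against 0.557% to 1.26%.

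Between the genotypes, the medians of score, size, votes, strand imbalance and gap in the set overlapped. The median score was 0.350 ± 0.0890 in top1a-2, against 0.329 ± 0.0894 in Ler (SD, n = 2; exact permutation p = 0.667). The median size was 137.7 ± 3.27 bp in top1a-2, against 132.8 ± 3.65 bp in Ler (SD, n = 2; exact permutation p = 0.667). The median gap, given as a description, was 324.5 ± 3.54 bp in top1a-2, against 337 ± 17.0 bp in Ler. Score, votes and strand imbalance were higher in replicate 1 than in replicate 2 of both genotypes, and they differed more between these replicates than between the genotype means. The deficit in size against isolated wide calls was smaller in top1a-2, at -8.16 ± 1.54 bp, than in Ler, at -12.8 ± 1.67 bp (SD, n = 2), without overlap. That difference of 4.61 bp had an exact permutation p of 0.333, the smallest that 2 against 2 libraries allow, and an adjusted p of 0.545. The excess in strand imbalance, as a fraction of the votes, was 0.131 ± 0.00151 in top1a-2, against 0.183 ± 0.0340 in Ler (SD, n = 2), also without overlap (exact permutation p = 0.333, adjusted p = 0.545). In raw votes, whose level differs between lists, the difference against isolated wide calls did not overlap between the genotypes either, at the same p. As a percentage of the isolated wide median the genotypes did overlap, with 41.5% and 24.4% in top1a-2, against 40.3% and 19.4% in Ler.

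The positions of isolated narrow calls recurred in other libraries more often than those of isolated wide calls. Agreement averaged 41.1% between the genotypes and 41.8% within them. A library other than the call's own held a call within 20 bp for 39.8% and 39.7% of the isolated narrow calls of the top1a-2 replicates and for 42.0% and 43.9% of those of the Ler replicates, averaged over the other 3 libraries. For isolated wide calls the values were 22.3% and 22.1% in top1a-2, against 21.8% and 22.4% in Ler. The difference was 19.2 ± 1.93 percentage points (SD), positive in 4 of 4 libraries (exact sign permutation p = 0.13, adjusted p = 0.321). After the other library was shifted by 5 kb, agreement was 11.4% on average for either kind of call. The ratio to the shifted level was 3.62 on average for isolated narrow calls, with a range of 3.39 to 4.05 over the 12 ordered pairs of libraries, and 1.95 for isolated wide calls, with a range of 1.86 to 2.08. In all 10 settings that rebuilt the set, agreement was higher for isolated narrow than for isolated wide calls in every library.

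Replicates of the same genotype shared positions to a similar degree in both genotypes. Between the top1a-2 replicates, 40.2% and 43.1% of the isolated narrow calls had a call of the other replicate within 20 bp, depending on the direction, and between the Ler replicates 39.2% and 44.6%. The means were 41.6% in top1a-2, against 41.9% in Ler, a difference of -0.247 percentage points, smaller than the spread between the 2 directions. With lists trimmed by score to equal length, which left Ler replicate 2 untrimmed, it was 9.71 percentage points. In that setting the agreement of Ler replicate 2 with the other libraries averaged 29.5%, against 43.9% with the full lists. For the trimmed lists it averaged 45.6% and 46.3% in top1a-2 and 48.3% in Ler replicate 1. No call lay within 100 bp in the other replicate for 26% and 30.0% of the isolated narrow calls in top1a-2 and for 33.5% and 27.3% in Ler. Isolated wide calls had such gaps about as often, at 27.9% and 23.8% in top1a-2, against 34.7% and 28.4% in Ler.

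**Figure D3:**
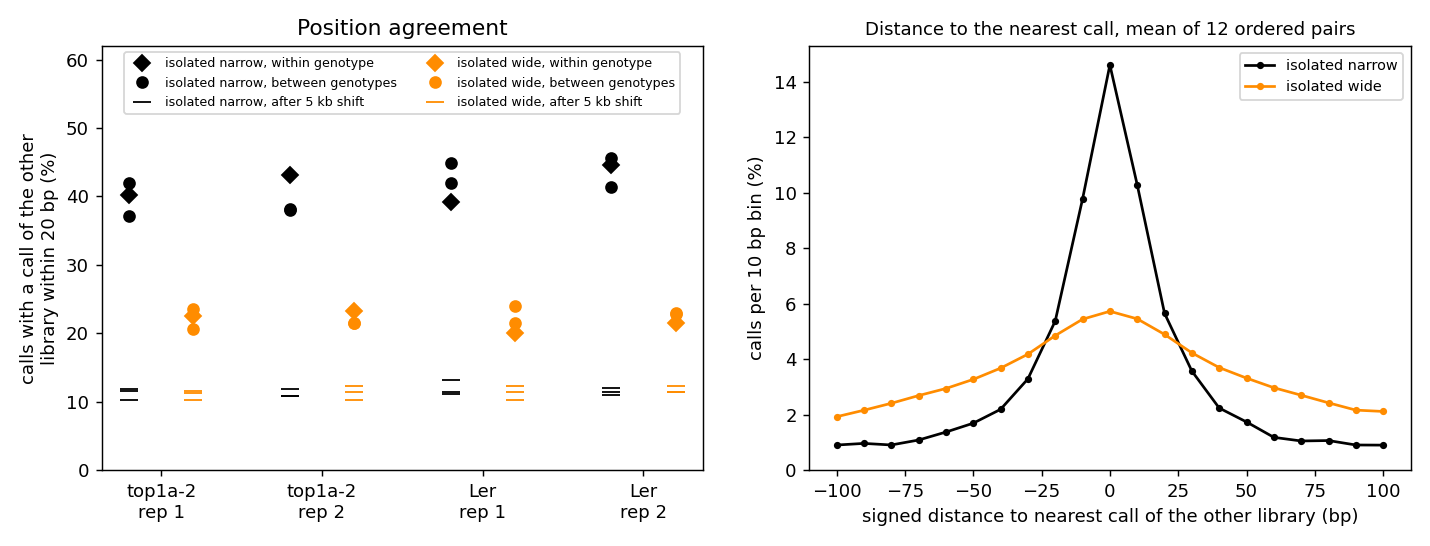
Left, the percentage of calls with a call of another library within 20 bp, for each library and each of the other 3 libraries. Diamonds are pairs of 1 genotype, circles pairs of both genotypes, and dashes the level after a 5 kb shift. Right, the signed distance in bp to the nearest call of the other library, as a percentage of calls per 10 bp bin, averaged over the 12 ordered pairs. All black points, for isolated narrow calls, lie between 37.2% and 45.6%, above the orange points for isolated wide calls at 20.0% to 24%, and the black curve has the taller peak at 0 bp.

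The partner calls in the other libraries were narrower too. They were found by position alone, but the same rule was applied in their own lists. Over the 12 ordered pairs, 13.4% to 27.5% of the partners of isolated narrow calls were isolated narrow themselves. For partners of isolated wide calls that share was 0.631% to 1.76%. Partner calls within 20 bp of isolated narrow calls had a mean fuzziness of 29.4 and 28.4 bp for the top1a-2 replicates and 27 and 26.8 bp for the Ler replicates. Partners of isolated wide calls had 38.6 and 38.5 bp for top1a-2 and 38.3 and 38.3 bp for Ler. The difference averaged -10.5 ± 1.05 bp (SD) and was negative in 4 of 4 libraries. Fuzziness chose the calls, and some of their partners by the same rule, so no test is given. Partners were narrow in 29.0% and 36.7% of cases for top1a-2 and in 43.7% and 43.8% for Ler, against 3.77% to 5.73% for isolated wide calls. Partners in the other replicate of the same genotype were narrow in 38.1% ± 8.26 of cases in top1a-2 and in 38.9% ± 0.109 in Ler (mean and SD over the 2 directions of 1 replicate pair, which are not replicates, so no test is given). Weakness recurred as well. The partners' median score was 0.435 to 0.653 over the 12 ordered pairs, against 0.866 to 0.950 for partners of isolated wide calls. The lowest-scoring 25% of the other list held 40.2% to 56.7% of the partners of isolated narrow calls, against 15.4% to 18.3% of those of isolated wide calls.

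Agreement was not highest where fuzziness was lowest. Calls with a fuzziness of 0 to 2 bp had a partner in 9.30% ± 1.98 of cases (SD over 4 libraries), below the shifted level of 12.2%. Their median strand imbalance was 100% in 3 libraries and 99.98% in Ler replicate 1, and their median score 0.0117 to 0.0191. Agreement was 23.9% ± 1.86 at 3 to 10 bp, 33.6% ± 2.52 at 11 to 15 bp, 43.0% ± 1.59 at 16 to 20 bp and 48.0% ± 4.39 at 21 to 25 bp. Just outside the set it was 44.4% ± 3.38 at 26 to 30 bp, and it was 27.9% ± 1.13 at 31 to 40 bp and 17.4% ± 0.460 at 41 to 50 bp. The position of an isolated call therefore recurred most often at a fuzziness of about 16 to 30 bp, and the lower end of the set did not recur above the shifted level.

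The score went with agreement inside the set. Among the lowest-scoring 25% of a list, 32.8% ± 2.04 of the isolated narrow calls had a partner, and in the second class of 25% 56.0% ± 5.31 (SD over 4 libraries). In the third class it was 61.2% ± 6.67, and in the highest 60.3% ± 1.83, where a library held only 47 to 185 such calls. Isolated wide calls had partners in 20.2% to 23.9% of cases in the 4 classes on average, with the lowest value in the highest class. The difference between isolated narrow and isolated wide calls was thus present in every class of the score. By the length of the longer gap, agreement of isolated narrow calls was 42.6% ± 3.34 under 400 bp, 40.7% ± 2.49 at 400 to 1000 bp and 37.1% ± 1.49 over 1000 bp. By size, it was 45.8% ± 3.68 at 100 to 160 bp, 29.6% ± 2.67 under 100 bp and 32.2% ± 2.34 over 160 bp. Isolated wide calls also had partners most often at 100 to 160 bp, with 23.4%, 19.6% and 19.3% in the same 3 classes.

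**Figure D4:**
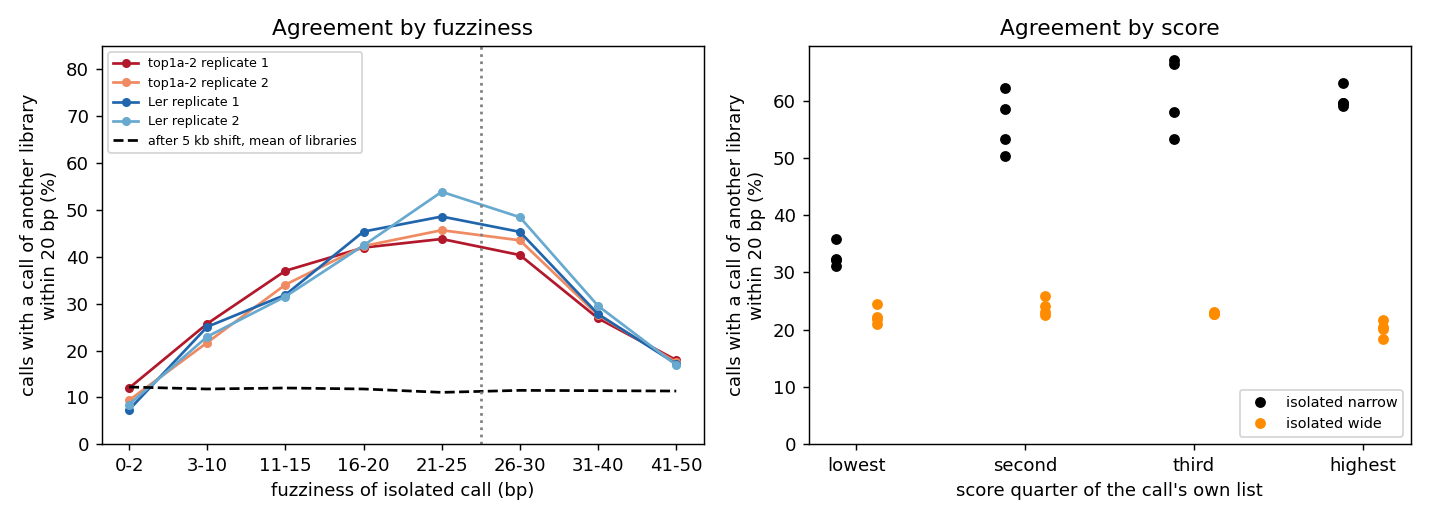
Percentage of isolated calls with a call of another library within 20 bp, averaged over the other 3 libraries. Left, against the fuzziness of the call in bp, 1 line per library, with a dotted line at the limit of 25 bp and a dashed line for the mean level after a 5 kb shift. Right, by score class, each 25% of the call's own list, 1 point per library, for isolated narrow (black) and isolated wide calls (orange). Agreement peaks at 21 to 25 bp in all 4 libraries and starts below the shifted level of 12.2% on average at 0 to 2 bp.

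The set was densest in the class closest to the assumed centromere positions in every library. At 2.5 to 4 Mb from the assumed centromere position, isolated narrow calls were 2.96% and 2.04% of the isolated calls of top1a-2 and 1.54% and 1.44% of those of Ler. At 4 to 6 Mb they were 2.12% and 1.32% in top1a-2, against 0.830% and 0.831% in Ler. Beyond 10 Mb they were 1.47% and 0.959% in top1a-2, against 0.575% and 0.558% in Ler. The share was thus highest at 2.5 to 4 Mb in 4 of 4 libraries, and top1a-2 was above Ler at each distance. With assumed positions of 3.6 and 4 Mb, this class also took in the tops of chromosomes 2 and 4. They were not split off, so a rise toward the centromeres alone is not shown. Single chromosomes differed little, with means of 1.49% to 1.67% in top1a-2 and 0.741% to 0.874% in Ler, and the top1a-2 libraries lay above the Ler libraries on each of the 5 chromosomes.

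Joined within 20 bp over the 4 lists, the 7917 calls fell on 7118 positions. Of these, 6436 (90.4%) were isolated narrow in 1 library, 583 in 2, 81 in 3 and 18 in all 4. The 18 are 0.253% of the positions, against a background of 0.688% of all arm positions that held a call in all 4 libraries and 0.290% of the positions of isolated wide calls. The lists of isolated narrow calls are far shorter than the others, so these shares do not compare how well positions recur. Isolated narrow calls of both top1a-2 replicates met at 201 positions, and those of both Ler replicates at 125. At the 201 positions, Ler replicate 1 had a call within 20 bp at 128 (63.7%) and Ler replicate 2 at 120 (59.7%). The background over all arm positions called in both top1a-2 libraries was 34.2% for Ler replicate 1 and 32.4% for Ler replicate 2. At the 201 positions these calls were isolated narrow at 37 and 47 positions, narrow with a closer neighbour at 26 and 12, and wide at 65 and 61. At the 125 Ler positions, top1a-2 replicate 1 had a call within 20 bp at 82 (65.6%) and top1a-2 replicate 2 at 74 (59.2%), against a background of 38.2% and 36% over all arm positions called in both Ler libraries. These calls were isolated narrow at 41 and 34, narrow with a closer neighbour at 14 and 9, and wide at 27 and 31.

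Few of these positions were empty in the other genotype. No Ler call lay within 100 bp at 12 of the 201 top1a-2 positions, or 5.97%, against a background of 8.73% of all arm positions with calls in both top1a-2 libraries. No top1a-2 call lay within 100 bp at 10 of the 125 Ler positions, or 8%, against a background of 5.55%. Both counts are small and near their background.

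Of the 18 positions that were isolated narrow in all 4 libraries, 1 lay on chromosome 1, 6 on chromosome 2, 4 on chromosome 3, 5 on chromosome 4 and 2 on chromosome 5. Of the 7917 isolated narrow calls, these chromosomes held 25.8%, 16.6%, 19.0%, 15.5% and 23.0%, and the counts of positions are too few to compare with these shares. Their calls lay within a median span of 9.5 bp of each other. The median score of these calls was 0.826 and 0.627 in top1a-2, against 0.716 and 0.583 in Ler. The longer gap exceeded 1000 bp for 22.2% and 44.4% of them in top1a-2, against 16.7% and 38.9% in Ler.

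The 5 of them with the highest minimum score were of unlike kinds. The first lay at position 6130 of chromosome 2 in all 4 lists. Its scores were 4.36 and 5.10 in top1a-2, against 7.21 and 10.4 in Ler, its sizes 1.42 and 2.35 bp in top1a-2, against 1.52 and 26.3 bp in Ler, and nearly all of its votes were forward (10.6 and 16 in top1a-2, 28.8 and 93.4 in Ler). These sizes are far under that of a nucleosome, and the position is close to the end of the chromosome. The third, at 21869464 and 21869481 of chromosome 3 in top1a-2 and at 21869477 and 21869466 in Ler, likewise had mostly forward votes, and its sizes were 13.1 and 291 bp in top1a-2, against 2.17 and 11.9 bp in Ler.

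The other 3 had sizes of 122 to 141 bp and votes on both strands. On chromosome 4, calls lay at 14412668 and 14412663 in top1a-2 and at 14412660 and 14412658 in Ler. Their fuzziness was 22 and 25 bp in top1a-2, against 24 and 23 bp in Ler, their size 141 and 131 bp in top1a-2, against 139 and 123 bp in Ler, and their score 1.84 and 1.40 in top1a-2, against 1.54 and 1.10 in Ler. The nearest neighbour stood 361 to 510 bp away on the left and 480 to 501 bp on the right in the 4 lists. On chromosome 2, calls lay at 13264085 and 13264074 in top1a-2 and at 13264082 and 13264076 in Ler, with scores of 1.16 and 0.910 in top1a-2, against 1.29 and 1.01 in Ler. On chromosome 4, calls lay at 10842914 and 10842917 in top1a-2 and at 10842917 and 10842908 in Ler, with scores of 1.54 and 0.832 in top1a-2, against 0.982 and 1.08 in Ler. At these 3 positions the calls of the 4 libraries lay within 11 bp of each other, and the fuzziness ranged over 21 to 25 bp.

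Among the positions narrow in both top1a-2 replicates and empty in Ler, the highest minimum score was found on chromosome 1 at 12161216 and 12161211, with scores of 1.20 and 1.11. Its votes were mostly reverse, at 0.318 and 0.378, against 0.00420 and 0.0314 forward. The nearest Ler calls lay 116 and 342 bp away, had a fuzziness of 49 and 43 bp and scored 1.69 and 3.56. It was followed by a position on chromosome 4 at 6725356 and 6725355, with scores of 0.879 and 0.747, and 1 on chromosome 1 at 5224332 and 5224346, with scores of 0.890 and 0.638. The nearest Ler calls lay 180 and 162 bp and 138 and 152 bp from these, again wide, at 58 and 64 bp and at 44 and 38 bp of fuzziness.

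Positions narrow in both Ler replicates and empty in top1a-2 had lower scores. The first, at 17729 of chromosome 2 in both Ler lists, scored 0.258 and 0.208, had a fuzziness of 2 and 1 bp and almost only reverse votes. It lay 1733 and 1717 bp from the call on its left. The others lay on chromosome 1 at 18951990 and 18951996, with scores of 0.183 and 0.188, and on chromosome 2 at 10074952 in both Ler lists, with scores of 0.105 and 0.0933. With minimum scores of 0.183 and 0.0933, these calls were far below the median score of isolated wide calls in Ler. The nearest top1a-2 calls lay 1725 and 633 bp, 613 and 187 bp and 317 and 102 bp away. Their fuzziness was 28 and 48 bp, 36 and 1 bp and 37 and 13 bp. The narrow ones, at 187 and 102 bp, scored 1.62e-103 and 0.0221, and 102 bp is just past the limit of 100 bp.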

How the data were processed

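Per the file headers, each of the 4 deposited lists gives for every nucleosome call a position, a fuzziness, a size, a confidence score and votes for each strand. The scores and votes are the authors' own deposited values, with no scaling stated in the labels. Lists were made per library. The aligner, the caller, the genome build and the base from which positions count were not given in the sources used here.

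Neighbours were found within each list over whole chromosomes, and calls over 2.5 Mb from 15, 3.6, 14, 4 and 12 Mb on chromosomes 1 to 5 were kept. These points were not checked against the build. A chromosome's first and last calls have only 1 neighbour and were left out. Agreement is the percentage of calls matched within 20 bp by the other list. Genotypes were compared by exact two-sided permutation over the 6 assignments, and the 2 kinds of call by exact two-sided sign permutation over the 4 libraries, with Benjamini-Hochberg adjustment over 18 tests. Neither can reach 0.05. The 18 include 3 tests of the flanking gap, which the rule had limited, and 1 of the partners' narrow share, over directions of 1 replicate pair. They also include 1 of the partners' fuzziness, the measure that the rule had used. These are void as tests, and only their values are given. Python 3.11.15, numpy 2.4.6 and pandas 2.3.3 were used, and the counting was tested on simulated lists. Named positions are the 5 shared by all 4 libraries and the 3 found in 1 genotype only with the highest minimum scores. The calls, lists and rules were chosen with earlier results of these data known.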

Additional observations from a re-analysis of the deposited data

How the results depend on the processing

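The 23 results were recomputed under the alternatives, which gave 329 values. Of these, 281 kept their direction, stayed within the spread between libraries or, for counts of positions, stayed within a set ratio. Of 107 recomputed values of the 7 differences between isolated narrow and isolated wide calls, 102 kept their direction, and the others concerned gaps and votes. The difference in gaps turned to 0.5 bp with a neighbour distance of 300 bp, 74.1 bp without scores below the lower quartile and 82.3 bp with means, and the genotype difference of it (12.5 bp) to -14, -8.25 and -55.3 bp. For votes the same difference turned to 0.0379 without low scores and 4.93 with means, and the genotype difference of it (0.0660) to -0.0186 and -4.30. The genotype difference in the excess of strand imbalance (-0.0527 as a fraction of the votes) was 0.0127 without low scores, and that in the deficit of score (0.0393) was -0.0391 without gaps over 500 bp and -0.0196 to 0.0982 without 1 library at a time. The genotype difference in the median score of isolated narrow calls (0.0213) was -0.00378 with a fuzziness limit of 30 bp, -0.00798 with 4 Mb left out around the assumed centromeres, -0.00501 without low scores, -0.00997 without gaps over 500 bp and -0.0419 to 0.0845 without 1 library. That in strand imbalance (-0.0373 as a fraction) was 0.00479 with the 30 bp limit, 0.00819 with a neighbour distance of 200 bp, 0.0274 without low scores, 0.00886 without gaps over 500 bp and -0.0947 to 0.0201 without 1 library. That in the narrow share of partners (-0.887 percentage points) was 0.724, 0.447, 0.480 and 1.64 under the same 4 settings. That in gaps (-12.5 bp) was 1 bp without gaps over 500 bp and 13.5 bp with lists trimmed by score to equal length, and that in votes (-0.0185) was 0.0168 in that setting. Replicate agreement (-0.247 percentage points) was 9.71 there. This setting left Ler replicate 2 untrimmed. The difference in the narrow share (0.745 percentage points) was 0.318 and 1.91 with limits of 20 and 30 bp, 1.52 with a neighbour distance of 200 bp, and 0.397 to 1.09 without 1 library. Positions of top1a-2 empty in Ler (12) numbered 6 and 43 with limits of 20 and 30 bp, 53 and 3 with distances of 200 and 300 bp, 6 with 4 Mb left out, 5 without gaps over 500 bp and 6 with equal numbers. Positions of Ler empty in top1a-2 (10) numbered 23 with the 30 bp limit, 22 with 200 bp, 5 with 4 Mb left out, 2 without low scores, 16 with a limit of 50 bp on the absence and 2 without gaps over 500 bp. For all of these, the cause was not tested. The ratio of agreement to the shifted level (3.62) was 3.73 with a shift of 2 kb. With the replicate number as a block no direction changed, and the exact p was 0.5 or higher, the smallest that 2 pairs allow. Per the labels, same-numbered libraries share only the number, and their differences in the narrow share over 100 windows of 1 Mb had a correlation of -0.023. Leaving out gaps over 500 bp, equal numbers and leaving out a fuzziness under 3 bp were added after the data were seen. Leaving out 1 library gives no replicate agreement, partner share or shared positions for its genotype, so those were not recomputed. Unknown read depth limits all values.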
